A study of Canis lupus familiaris with 33 samples.

Results

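Lymph nodes of dogs whose diffuse large B-cell lymphoma (DLBCL) had been treated with chemotherapy were compared with lymph nodes of healthy dogs, across all 43035 probesets of an Affymetrix Canine Genome 2.0 array. The samples were chosen by their labels alone, as DLBCL with previous chemotherapy (7 arrays, from 7 dogs) or as healthy tissue (10 arrays), so that 17 of the 33 arrays of the series were used. The other 16 arrays are of treatment naive DLBCL and served for one further test. Arrays 1 to 4 of the healthy nodes carry 1 case number and were averaged as healthy dog 1, which left 7 healthy dogs.

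The study's methods describe the treated dogs as relapsed after standard CHOP, a combination of cyclophosphamide, doxorubicin, vincristine and prednisone. The labels are less uniform. They give CHOP for samples 3, 13 and 24, CHOP followed by CCNU/L-Aspar/Pred for sample 18, Dox/Pred followed by CCNU/L-Aspar/Pred for sample 9, Dox/Cytoxan/Pred for sample 12, and the unexplained code GS for sample 4. The last treatment lay 13 days before the biopsy in sample 24, 32 in sample 9, 76 in sample 18, 82 in sample 3, 123 in sample 13, 152 in sample 12 and 672 in sample 4. The treated dogs were 6.4 to 11.8 years old, were 6 neutered males (M/N) and 1 female (F/S), and were labelled German Shepard X, Whippet, Labrador X, Labrador Retriever (2 dogs), German Shepherd and Siberian Husky. Sample 3 was taken under tramadol, and no medication was listed for the others. Age, sex, breed and medication of the healthy dogs were not given here. Their nodes came from animals put down for reasons other than lymphoma, and the lymph node site was not given in the sources used here. Sex, age, breed and cause of death can therefore not be told apart from disease in this comparison, and no dog was sampled both healthy and diseased.

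DLBCL is a tumour of mature B cells that replaces the normal architecture of the node. A healthy node holds B-cell follicles with germinal centres, a T-cell zone served by dendritic cells, and a scaffold of stromal cells and vessels that recruits lymphocytes with chemokines. Dogs develop the disease spontaneously, are treated with much the same drugs as people, and commonly relapse after an initial response.

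The groups were separated along the first of the principal components, but 1 dog of each group stood apart. The first component held 38.05% of the variance, with scores of 45.5 to 62.8 in the healthy dogs and of -86.1 to -42.7 in the relapsed samples other than sample 18, which lay at 5.14 and had the lowest score of all on the second component (-95.3). Healthy dog 1 had the lowest second score of the healthy dogs (-43.2). The RNA integrity number (RIN), where higher values mean more intact RNA, was 9.56 ± 0.33 (SD, n = 7) in the relapsed and 7.11 ± 1.12 (SD, n = 7) in the healthy dogs (two-sided exact permutation test, p = 0.00117), and healthy dog 1 (9.15) was the one healthy dog above 9 (relapsed range 9.1 to 9.9). The part of RNA integrity in the differences below was not tested beyond a fit with RIN as a covariate, in which healthy dog 1 was the one healthy dog within the relapsed range. Levels are RMA values on the log2 scale, in which a difference of 1 is a 2-fold change. Tag controls without a canine target had means of 2.74 to 4.53, so that values near 4 lay at background.

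**Figure D1:**
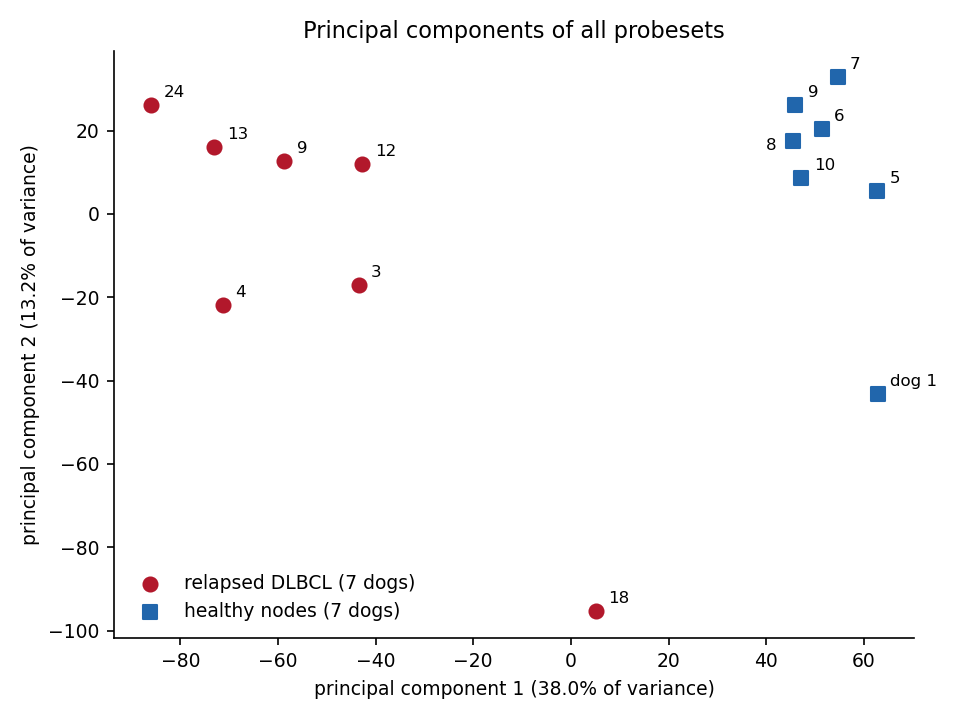
Scores of 7 relapsed DLBCL samples (red circles, sample numbers) and 7 healthy dogs (blue squares) on the first 2 principal components of all probesets, with the share of variance on each axis. All healthy dogs lie at the right, 6 relapsed samples at the left, and sample 18 (5.14, -95.3) and healthy dog 1 (62.8, -43.2) apart from their groups.

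More probesets were down-regulated than up-regulated in relapsed DLBCL. Counting changes of more than 2-fold at an adjusted p under 0.05, 694 probesets were higher (1.61% of all) and 1505 lower (3.50%). Without sample 18 the counts were 958 and 1866, and with RIN as a covariate 183 and 704. Read as 15115 named genes at the adjusted p alone, 1781 genes were higher (11.8%) and 1616 lower (10.7%), around a median log2 difference of 0.05 over all genes. In 375 of the called higher genes (2.48% of genes measured) and 528 of the lower ones (3.49%) the 7 relapsed and 7 healthy values did not overlap. After adjustment for RIN 109 genes were called higher (0.721%) and 295 lower (1.95%). The gene lists below are read against these shares.

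The genes with the largest falls included several of T cells and of the contact between T cells and other cells. CCL17, a chemokine made by dendritic cells that attracts T cells, had log2 levels of 6.03, 5.77, 8.00, 8.96, 6.65, 8.02 and 6.91 in relapsed samples 3, 4, 9, 12, 13, 18 and 24, and of 11.34, 11.92, 12.16, 12.14, 11.55, 12.49 and 11.49 in healthy dog 1 and healthy samples 5 to 10. The highest relapsed sample was thus well below the lowest healthy dog. The fall was 25.6-fold, a log2 difference of -4.68 ± 0.43 (SE; limma, adjusted p = 6.68e-06). CTLA4, an inhibitory receptor of T cells, lay at 6.59 to 9.88 (median 8.72) in the relapsed and 12.12 to 12.84 (median 12.82) in the healthy dogs. Its log2 difference was -4.08 ± 0.45, and again the groups did not overlap. CD28, which costimulates T cells, fell by 3.83 and LEF1, a transcription factor of the T lineage, by 3.82 on the log2 scale. TRAT1, which binds and stabilises the T-cell receptor, fell by 3.61, IL2, a growth factor of T cells, by 3.68, and CD40LG, the T-cell ligand of CD40 on B cells, by 3.59. CD52, a lymphocyte surface glycopeptide, fell by 3.85.

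Antigen receptor gene segments and genes of no obvious lymphoid role were also among the largest falls. LOC609053, which RefSeq lists as a constant region gene segment, lay at 5.39 to 8.75 in the relapsed and at 10.82 to 12.30 in the healthy dogs, a log2 difference of -4.05 ± 0.42. LOC486377, listed as a variable gene segment, lay at 6.73 to 9.14 and 10.61 to 13.60, with a difference of -3.65 ± 0.46, and 1 of its other probesets was not called. Neither segment overlapped between the groups. OCA2, known for its role in melanosomes, lay at 4.57 to 6.30 against 8.72 to 9.57, a difference of -3.59 ± 0.23. DSCAML1, a neuronal adhesion molecule, fell by 3.55 on its brighter probeset and was not called on its other one (-0.14).

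The largest rises were smaller than the largest falls. ERICH2 had levels of 8.24, 6.37, 6.75, 7.70, 7.44, 4.98 and 8.22 in relapsed samples 3, 4, 9, 12, 13, 18 and 24, against 3.39 to 4.19 in the healthy dogs, which lay at the level of the tag controls. All relapsed samples were above all healthy dogs, with sample 18 the nearest to them. The rise was at least 10.1-fold (3.33 ± 0.42, adjusted p = 0.000115), a lower bound because the healthy values were at background. ASIC5, an acid-sensing ion channel, lay at 7.63 to 9.52 (median 8.78) against 5.14 to 6.05 (median 5.44), a difference of 3.25 ± 0.26. ADORA2B, a receptor for adenosine, was tightly grouped at 8.86 to 9.62 in the relapsed and 6.26 to 6.91 in the healthy dogs, a difference of 2.58 ± 0.12 with an adjusted p of 9.44e-08. SLC6A12, a transporter of betaine and GABA, rose by 2.44, and KLHL14, a kelch-family protein, by 2.35.

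BCL2L14, of the BCL2 family, rose by 2.16 ± 0.25, although 1 of its 4 other probesets did not differ (-0.01). CCNE2, cyclin E2 of S-phase entry, rose by 2.03 ± 0.31. The remaining 5 of the 12 largest rises, CMPK2, ISG15, USP18, RTP4 and EIF2AK2, are genes induced by interferon. With RIN as a covariate the calls of ASIC5, ADORA2B, SLC6A12, BCL2L14 and USP18 were kept among these 12 rises, and those of CCL17, CTLA4, LOC609053, CD52, CD28, LEF1, LOC486377, CD40LG, OCA2 and DSCAML1 among the 12 falls. IL2 (adjusted p = 0.0616) and TRAT1 (0.118) lost theirs.

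**Figure D2:**
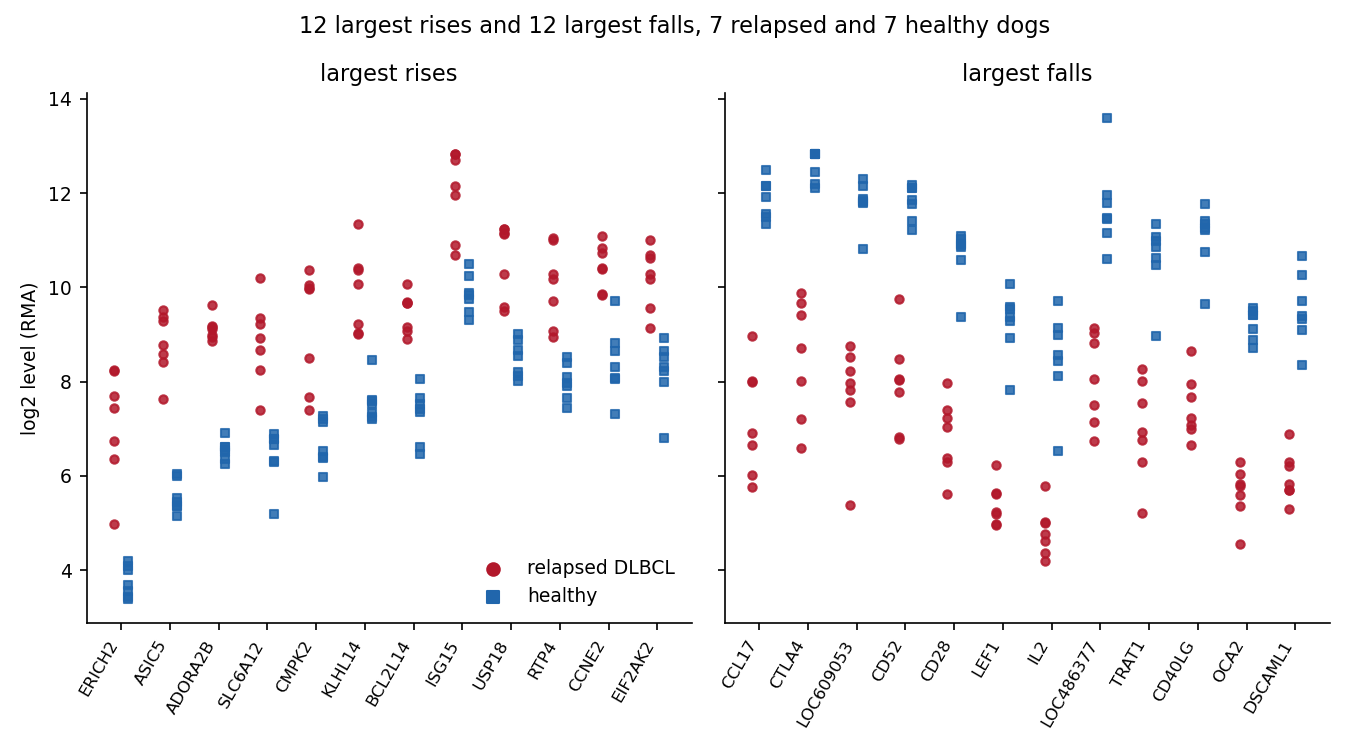
Log2 level of the 12 genes with the largest rise (left) and the 12 with the largest fall (right) among called genes without overlap, 1 point for each of 7 relapsed (red circles) and 7 healthy dogs (blue squares). CCL17, with the largest mean difference, lies at 5.77 to 8.96 against 11.34 to 12.49.

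Most T-cell genes were lower. Of 27 measured members of the T cell list 25 were called lower and 0 higher, with a median log2 difference of -2.66 beside 0.05 over all genes, and 21 members did not overlap between the groups. The mean level of the list was 7.41 to 8.46 in the relapsed samples and 10.13 to 10.49 in the healthy dogs other than healthy dog 1, which lay at 9.46. Every relapsed sample was below every healthy dog. CD3E, a chain of the CD3 complex that marks T cells, lay at 9.81 to 11.18 (median 10.09) against 12.28 to 12.79 (median 12.55), a difference of -2.32 ± 0.19 (adjusted p = 2.52e-06). CD3D, another chain of that complex, lay at 13.26 to 13.94 against 13.66 to 14.12 and was not called (-0.26, adjusted p = 0.182). CD27, a receptor of T and memory B cells, fell by 3.32. The count remained at 17 of 27 with RIN as a covariate, and it was 25 without sample 18, without healthy dog 1 and without both. In bulk tissue, fewer cells of a type and less RNA per cell cannot be told apart.

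Genes of T helper subsets and their cytokines followed in part, with 12 of 25 members lower and 1 higher (median -0.64). CCR8, a chemokine receptor of T helper 2 and regulatory T cells, lay at 3.30 to 3.97 in the relapsed samples, at background, against 5.73 to 7.45 in the healthy dogs. The measured difference of -3.06 ± 0.23 is therefore a lower bound on the size of the fall. IL23R, the receptor for IL-23, fell by 2.95 and IL12B, the shared subunit of IL-12 and IL-23, by 2.58. STAT4, which carries the IL-12 signal, lay at 8.52 to 10.65 against 11.57 to 12.16, a difference of -2.07 ± 0.26. CCR8, IL23R and IL12B kept their calls with RIN as a covariate, where 3 members of the list were called lower in all.

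Cytotoxic and dendritic cell genes were lower as well. Of 14 members of the NK and cytotoxic list 8 were lower and 0 higher (median -1.36). CTSW, a protease of cytotoxic cells, lay at 7.62 to 9.37 (median 8.04) against 10.84 to 11.69 (median 11.44), without overlap and with a difference of -3.05 ± 0.26. EOMES, a transcription factor of cytotoxic cells, fell by 2.47, GZMK, a granzyme, by 1.93 and KLRD1, the CD94 receptor, by 1.64. GZMA, another granzyme, did not fall and was not called (0.58 ± 0.52, adjusted p = 0.469). Of 14 dendritic cell members 10 were lower and 1 higher (median -1.28). They included FLT3, the receptor for the growth factor of these cells, at 7.14 to 8.36 against 9.89 to 11.56 (-2.68 ± 0.26), IL4I1, an amino acid oxidase (-2.19), and CD80, a ligand of CD28 and CTLA4 (-1.86). After adjustment for RIN 3 of these cytotoxic and 4 of these dendritic cell members were still called lower.

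Of 19 inhibitory receptors and ligands of T cells 4 were lower and 2 higher. IDO1, an enzyme that depletes tryptophan, lay at 8.45 to 10.57 (median 9.54) against 11.56 to 13.37 (median 13.00), a difference of -3.25 ± 0.36 without overlap. LGALS9, the galectin that binds TIM-3, went the other way, at 10.33 to 11.58 against 9.48 to 10.11 (1.05 ± 0.18). Neither kept its call with RIN as a covariate (adjusted p = 0.066 for IDO1 and 0.161 for LGALS9). CTLA4 and ADORA2B, described above, are also on this list and kept theirs. Among 29 TNF ligands and receptors 10 were lower and 2 higher. TNFRSF4, the costimulatory receptor OX40, fell by 2.21 and TNFRSF25, the death receptor DR3, by 2.00, and both kept their call with RIN as a covariate.

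The structural cells of the node gave a mixed picture. Of 13 members of the lymph node stroma and follicular dendritic cell list 5 were lower and 0 higher. CCL21, the stromal chemokine that draws T cells and dendritic cells into the node, lay at 11.66 to 13.94 (median 12.88) against 14.65 to 15.01 (median 14.95), a difference of -2.07 ± 0.30 (adjusted p = 0.000354) without overlap. TNFSF11, the ligand RANKL, fell by 1.44. Of 18 endothelial members 6 were lower and 0 higher, among them KDR, the VEGF receptor of endothelium, at 9.33 to 10.51 against 10.54 to 12.17 (-1.29 ± 0.24). Of 21 adhesion and homing genes 7 were lower and 0 higher. RGS1, a brake on chemokine receptors, fell by 2.30 and ITGB7, the beta 7 integrin, by 1.88. Of these lower genes 0 stromal, 2 endothelial and 1 homing gene were called with RIN as a covariate.

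Matrix genes were higher in part of the list, with no member free of overlap. Of 24 members of the fibroblast and matrix list 6 were higher and 1 lower (median 0.08). DCN, the matrix proteoglycan decorin, lay at 12.95, 12.40, 11.40, 11, 11.48, 13.53 and 11.22 in relapsed samples 3, 4, 9, 12, 13, 18 and 24, against 12.39 in healthy dog 1 and 7.02 to 10.93 in the other healthy dogs. Sample 18 was the highest relapsed sample, and healthy dog 1 the one healthy dog within the relapsed range. The difference was 2.44 ± 0.70 (adjusted p = 0.0237), and it turned to -0.28 (adjusted p = 0.925) with RIN as a covariate. LUM, the related proteoglycan lumican, differed by 2.43 ± 0.62, and by -0.51 in that fit (adjusted p = 0.791). FBLN1, a matrix glycoprotein, rose by 2.54 ± 0.47, but 1 of its 4 other probesets was not called (0.16). COL1A1, a chain of type I collagen, lay at 13.33 to 14.36 against 12.62 to 13.49 (0.71 ± 0.18). COL1A2, the partner chain, was not called on any probeset (0.10 ± 0.20 on the brightest, adjusted p = 0.779). No member of this list kept its call with RIN as a covariate.

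Among other cells of the node, 0 of 10 neutrophil and 0 of 9 adipose genes were called. These counts rest on single dogs and on RIN, since 3 neutrophil genes were lower with RIN as a covariate, and 6 adipose genes were lower without sample 18 and 3 without healthy sample 9. Healthy dog 1 had the highest neutrophil list level (9.92, against 6.85 to 7.92 in the other healthy dogs), and sample 18 stood out in the adipose list (10.12, against 7.26 to 7.96 in the other relapsed samples). ADIPOQ, the fat hormone adiponectin, was 11.81 in sample 18 and 6.74 to 8.26 in the others, against 8.06 to 12.22 in healthy dogs. Its difference of -1.93 ± 0.75 was not called (adjusted p = 0.0826), but was without sample 18 (-2.55, adjusted p = 0.00345) and without healthy sample 9 (adjusted p = 0.0489). Of 21 macrophage and monocyte genes 2 were lower, and 5 without sample 18. MARCO, a scavenger receptor of macrophages, lay at 9.77 to 11.86 against 11.52 to 14.01 (-1.87 ± 0.41). Of 9 mast cell and eosinophil genes 3 were lower, among them FCER1A, of the IgE receptor (-2.06), and KIT, the stem cell factor receptor of mast cells (-1.38). MARCO, FCER1A and KIT kept their call with RIN as a covariate. That fit leans on healthy dog 1, the one healthy dog within the relapsed RIN range. This dog had the highest macrophage list level (11.54, other healthy dogs 9.39 to 10.35) and mast cell list level (8.17, others 6.27 to 6.62). The medians of these lists were -1.43 and -1.82 in that fit, against -0.35 and -0.37 without RIN. The share of these cells in each node was not measured, and their part in the differences was not tested.

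**Figure D3:**
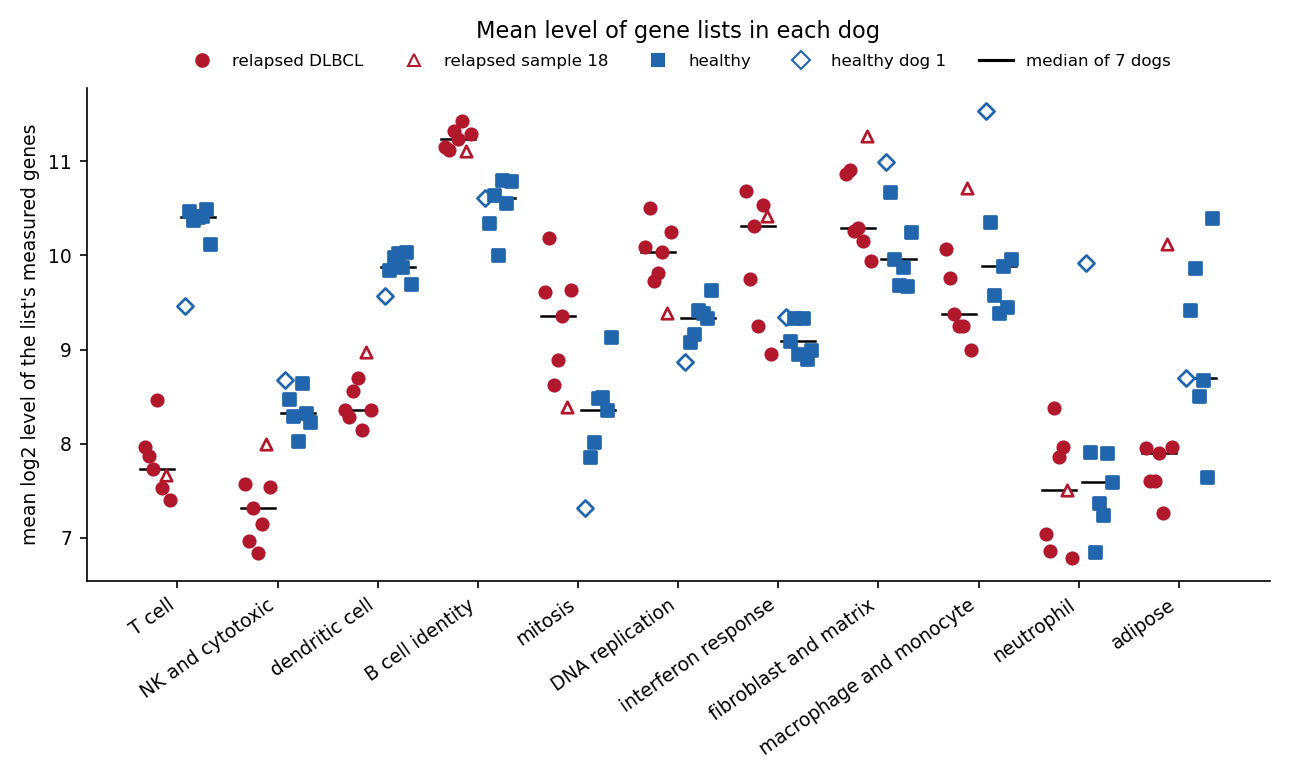
Mean log2 level of the measured genes of 11 lists in each of 7 relapsed (red) and 7 healthy dogs (blue), with the median as a line. The T cell list lies at 7.41 to 8.46 against 9.46 to 10.49, the open triangle (sample 18) is the lowest relapsed sample for mitosis and the open diamond (healthy dog 1) the highest for neutrophil genes.

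The B-cell markers MS4A1, CD79A and CD79B were present in every sample, and these 3 were higher in the tumours. MS4A1, the CD20 antigen, lay at 12.88 to 13.86 (median 13.19) against 11.65 to 12.65 (median 12.11), a difference of 1.07 ± 0.18 (adjusted p = 0.00106). CD79A, a signalling chain of the B-cell receptor, lay at 12.87 to 13.30 against 11.55 to 12.74 (0.83 ± 0.15), and both genes were without overlap. CD79B, the partner chain, rose by 0.92 with an overlap, since sample 3 lay at 11.99 and the highest healthy dog at 12.06. Of 12 measured members of the B cell identity list 7 were higher and 0 lower (median 0.66), and the mean level of the list was 11.11 to 11.43 against 10.01 to 10.80. BLK, a kinase of B-cell receptor signalling, rose by 1.47 ± 0.17, the B-cell adaptor BLNK by 1.19 ± 0.11, and POU2AF1, a B-cell coactivator, by 1.34 ± 0.29. BLK was 1 of 2 members of the list called with RIN as a covariate. BLNK, which belongs to the list of B-cell receptor signalling, kept its call in that fit. With naive DLBCL in the same fit 4 members were called.

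Germinal centre genes did not move one way, with 1 of 11 higher and 2 lower. BCL6, the repressor that germinal centre B cells need, lay at 10.39 to 11.50 (median 10.84) against 12.46 to 13.26 (median 12.71), without overlap and with a difference of -1.89 ± 0.16 (adjusted p = 3.96e-06), and it was the 1 germinal centre gene called with RIN as a covariate. RGS13, a regulator of chemokine signals found in germinal centre B cells, lay at 4.41 to 4.92 in the relapsed samples except sample 18 (6.65), against 6.35 to 9.28, a difference of -3.37 ± 0.45 (in the RIN fit adjusted p = 0.184). STAP1, an adaptor of B cells, rose by 1.04 (in the RIN fit adjusted p = 0.0976). PRDM1, the regulator of plasma cell differentiation, lay at 5.91 to 7.32 against 7.08 to 8.74 (-1.30 ± 0.25), in a plasma cell list of 8 genes with 3 higher and 3 lower, and with 0 called in the RIN fit.

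Among 28 genes of B-cell receptor and PI3K signalling 9 were higher and 3 lower. With RIN as a covariate BLNK was the 1 member called. PIK3CD, the delta catalytic subunit of PI3K, lay at 8.46 to 9.83 against 10.11 to 10.54 (-1.09 ± 0.21), and FOXO1, a transcription factor restrained by this pathway, at 11.23 to 12.28 against 12.27 to 12.59 (-0.78 ± 0.13). The PIK3CD values did not overlap, and those of FOXO1 met at the edge. Of 23 JAK and STAT genes 3 were higher and 4 lower, with STAT3 at 9.85 to 10.50 against 10.66 to 11.01 (-0.58 ± 0.10), and 2 of its 3 other probesets were not called. In the RIN fit 0 JAK and STAT genes were called.

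Genes of cell division were higher on the whole, with large differences between dogs. Of 45 measured mitosis genes 24 were higher and 0 lower (median 0.93), none of them without overlap. The mean level of the list was 9.61, 10.18, 8.63, 8.89, 9.36, 8.39 and 9.64 in relapsed samples 3, 4, 9, 12, 13, 18 and 24. It was 7.32, 7.86, 8.02, 8.49, 8.50, 8.36 and 9.14 in healthy dog 1 and healthy samples 5 to 10. Sample 18 and healthy dog 1 were the lowest of their groups, and healthy samples 7, 8 and 10 lay above sample 18. The count was 35 without sample 18, 17 without healthy dog 1 and 32 without both. It was also 17 without healthy sample 5, relapsed sample 3 or relapsed sample 24. It was 2 with RIN as a covariate, where the median of the list was 1.61, and 39 when the 17 arrays were taken as separate samples.

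BUB1B, a kinase of the spindle checkpoint, showed the same order as the list, with 8.78 in sample 18 and 9.67 to 11.22 in the other relapsed samples against 6.86 to 9.97 in the healthy dogs (1.82 ± 0.45, adjusted p = 0.01). CENPF, a kinetochore protein, rose by 1.79, NEK2, a centrosome kinase, by 1.63 and SGO1, which protects cohesion at centromeres, by 1.62. PLK1, the polo kinase of mitotic entry, lay at 6.80 to 9.24 against 7.05 to 8.24 and was not called (0.39, adjusted p = 0.44). CENPF and NEK2 were the members that stayed called with RIN as a covariate.

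Of 45 DNA replication genes 28 were higher and 1 lower (median 0.67), 7 of the higher ones without overlap. MCM3, of the replicative helicase, lay at 9.54 to 10.93 (median 10.29) against 8.72 to 9.32 (median 9.12), a difference of 1.19 ± 0.19, though 1 of its 3 other probesets was not called (0.15). MCM2, of the same helicase, rose by 0.95. DTL, an adaptor that times licensing, lay at 5.99 to 7.59 against 5.01 to 5.77 (1.31 ± 0.24). DNA2, a helicase and nuclease, rose by 1.84, ORC6, of the origin recognition complex, by 1.39, and POLA1, the catalytic subunit of polymerase alpha, by 1.12. The count was 1 with RIN as a covariate, where the median of the list was 0.82.

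Repair genes showed the same direction, with 18 of 35 higher and 1 lower (median 0.37). FANCI, of the Fanconi anaemia pathway, lay at 7.27 to 8.87 (median 7.69) against 6.22 to 6.65 (median 6.35), without overlap and with a difference of 1.49 ± 0.19. BRCA2 rose by 1.28 and BRCA1 by 0.98, both of homologous recombination. BRCA2 was among the 4 members that stayed called with RIN as a covariate. The count was 13 without healthy dog 1 and 22 without sample 18. It was also 13 without healthy sample 5 or 9, or relapsed sample 3, 4, 13 or 24.

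Drivers of the cell cycle moved both ways, with 9 of 23 higher and 3 lower, and 0 were called with RIN as a covariate. FOXM1, which drives mitotic genes, rose by 1.40 and E2F8, an E2F family repressor, by 1.46. MYBL2, a partner in the control of mitotic genes, was 12.14 in sample 18 and 9.77 to 10.64 in the other relapsed samples, against 8.19 to 10.03 (1.29 ± 0.35). Sample 18 was therefore the highest for MYBL2 and the lowest for the mitosis list. CCND1, cyclin D1, lay at 8.32 to 9.06 against 9.24 to 9.77 (-0.95 ± 0.13), without overlap, but not on its other probeset (-0.15). CDKN1A, the inhibitor p21, lay at 10.12 to 12.11 against 11.65 to 12.30 (-1.11 ± 0.24) and was not called on its 2 other probesets (0.17 and -0.27). In the p53 pathway 3 of 14 genes were higher and 1 lower. TIGAR, a p53 target of sugar metabolism, rose by 0.54 but was not called on its 2 other probesets (0.34 each), and MDM2, which degrades p53, lay at 10.49 to 11.48 against 10.82 to 11.21 (0.01 ± 0.14).

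Of 25 genes of nucleotide synthesis 14 were higher and 1 lower (median 0.54). PPAT, the first enzyme of purine synthesis, lay at 6.18 to 7.22 (median 6.76) against 5.26 to 6.03 (median 5.62), a difference of 1.19 ± 0.17. PAICS, a later enzyme of that route, rose by 1.15 and NME1, a nucleoside diphosphate kinase, by 1.08. All 3 were without overlap and kept their call with RIN as a covariate. TYMS, thymidylate synthase, lay at 12.40 to 13.13 against 11.61 to 12.11 (0.78 ± 0.12), also called in that fit. The subunits of ribonucleotide reductase were not called on their brightest probesets, RRM1 at 0.23 ± 0.17 (adjusted p = 0.367) and RRM2 at 0.58 ± 0.40 (adjusted p = 0.336), although 2 dimmer probesets of RRM1 were (0.56 and 0.66).

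Interferon-induced genes were higher, most clearly in 5 of the 7 relapsed samples. Of 30 measured members 18 were higher and 1 lower (median 0.90), 9 of them without overlap. The mean level of the list was 10.68, 9.75, 10.31, 9.25, 10.54, 10.42 and 8.96 in relapsed samples 3, 4, 9, 12, 13, 18 and 24, against 8.90 to 9.34 in the healthy dogs, so that samples 12 and 24 lay within the healthy range. ISG15, a ubiquitin-like modifier, lay at 12.82, 11.95, 12.14, 10.89, 12.83, 12.69 and 10.69 in the same order, against 9.30 to 10.50 (2.15 ± 0.34, adjusted p = 0.000674). Samples 12 and 24 were again the lowest, and above all healthy dogs. CMPK2, a mitochondrial nucleotide kinase, was 7.41 in sample 12 and 7.67 in sample 24 against 8.50 to 10.37 in the other relapsed samples and 5.98 to 7.26 in the healthy dogs (2.43 ± 0.46). USP18, which removes ISG15 from proteins, rose by 2.10, RTP4, a receptor chaperone, by 2.04, and EIF2AK2, the kinase PKR that senses double-stranded RNA, by 2.01. The count was 10 when naive DLBCL shared the fit and 2 with RIN as a covariate, where the median of the list was 0.94.

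Class I antigen presentation genes moved both ways, and class II genes were not called. Of 15 MHC class I and peptide loading genes 2 were higher and 3 lower, beside 11.8% and 10.7% of all genes. With RIN as a covariate 0 of them were called. Of 15 MHC class II genes 0 were called. DLA-79, a class I gene of the dog, lay at 10.41 to 12.86 against 12.36 to 13.18 (-1.11 ± 0.28), and 1 of its 2 other probesets was not called. Class I genes are near copies of each other, so that probesets may not tell them apart. B2M, the light chain of class I, lay at 14.18 to 14.34 in the relapsed samples except sample 18 (14.55), against 14.42 to 14.51. It was not called (-0.17 ± 0.06, adjusted p = 0.083), but was without sample 18 (-0.21, adjusted p = 0.0141).

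**Figure D4:**
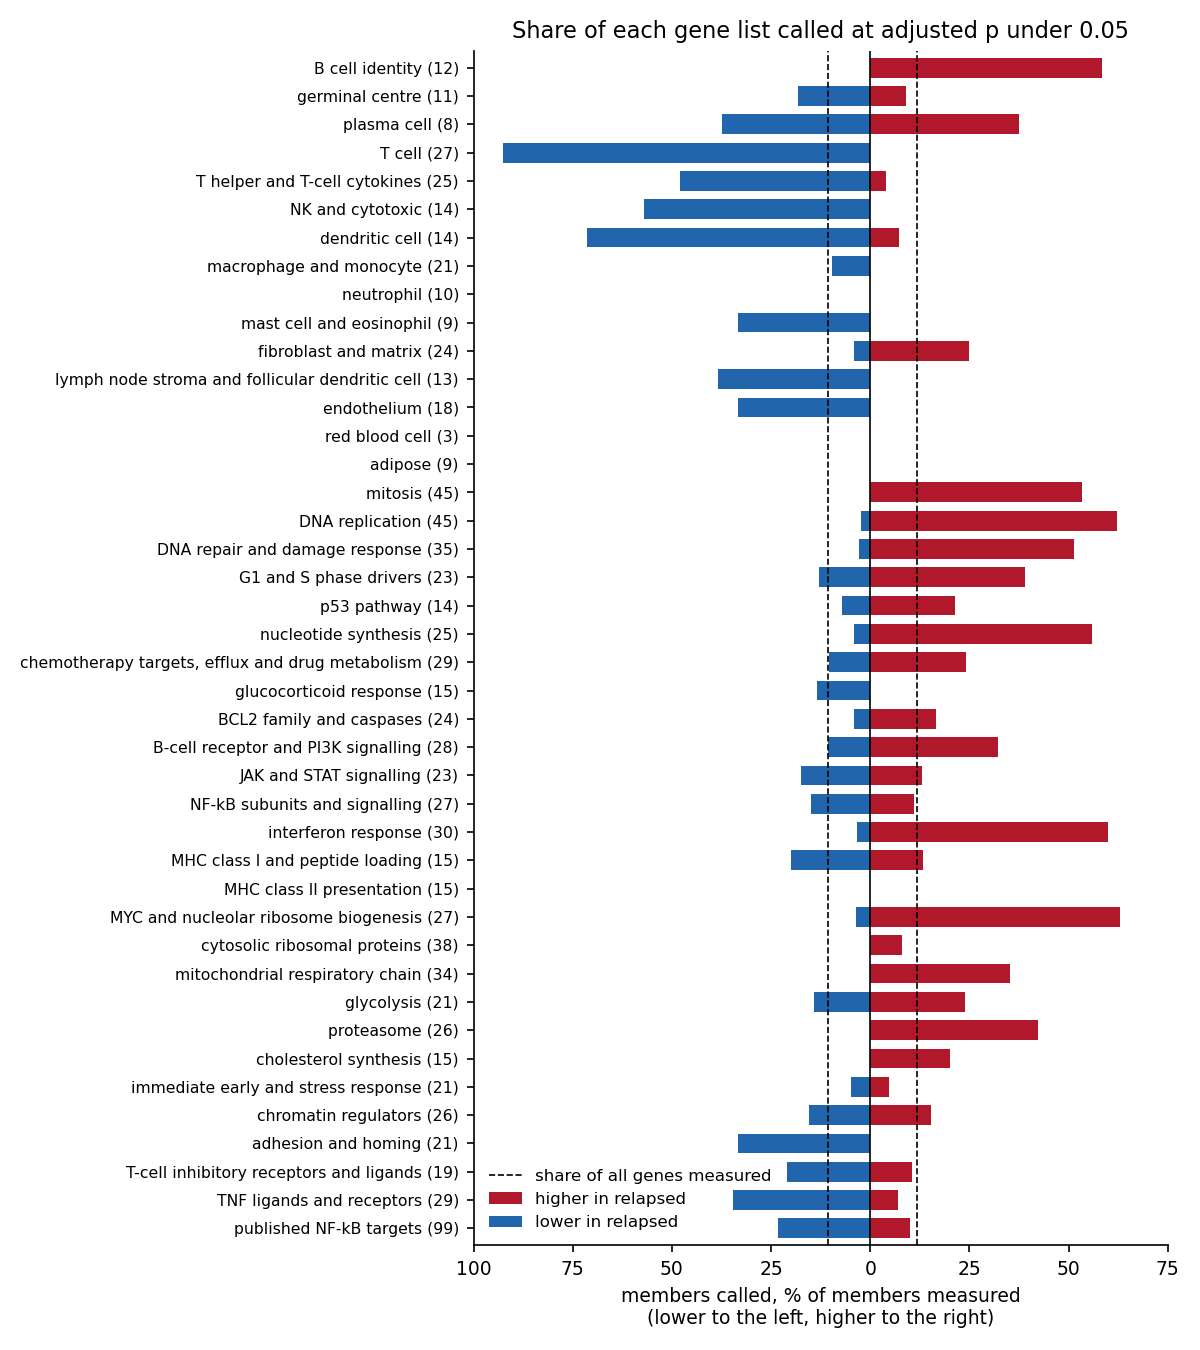
Share of the measured members of each of 42 gene lists (number measured in brackets) called higher (red, right) or lower (blue, left) in relapsed DLBCL at an adjusted p under 0.05, with the shares over all genes as dashed lines (11.8% and 10.7%). The T cell list reaches furthest to the left, with 25 of 27 members, and replication, MYC and interferon lists furthest to the right.

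Targets, transporters and enzymes of chemotherapy drugs, including drugs that no label names, formed 1 list, of which part is described here. Of 29 measured genes 7 were higher and 3 lower (median 0.18). ABCB1, the efflux pump P-glycoprotein that exports doxorubicin and vincristine, lay at 7.15, 5.78, 7.03, 7.63, 6.45, 6.77 and 6.66 in relapsed samples 3, 4, 9, 12, 13, 18 and 24, and at 9.18, 9.92, 9.44, 9.79, 9.48, 10.16 and 9.53 in healthy dog 1 and healthy samples 5 to 10. The groups were well apart. The lowest relapsed value was in sample 4, 672 days from treatment, and the highest in sample 12, which had the next longest time (152 days). Sample 24, at 13 days, lay at 6.66. The level was 7.26-fold lower in relapsed DLBCL (-2.86 ± 0.23, adjusted p = 2.59e-06; with RIN as a covariate -2.55, adjusted p = 0.0119). ABCB1 is known to be expressed in cytotoxic lymphocytes and endothelium, whose lists had levels of 6.84 to 7.99 against 8.03 to 8.68 and of 8.14 to 8.91 against 8.58 to 9.71 in the same groups. Their part in this difference was not tested.

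ABCC1, the efflux pump MRP1, lay at 10.36, 10.58, 11.05, 11.17, 10.19, 11.29 and 10.97 in relapsed samples 3, 4, 9, 12, 13, 18 and 24, against 9.36 to 10.15 in healthy dogs. It was above every healthy dog in each sample, with samples 3 and 13 the nearest (1.07 ± 0.18, adjusted p = 0.00104; with RIN as a covariate adjusted p = 0.191). ABCG2, the pump BCRP, lay at 8.12 to 10.17 against 9.46 to 10.49 and was not called (-0.79 ± 0.32, adjusted p = 0.0946). The 3 other pumps of the ABCC family on the list differed by -0.50 to 0.17 and were not called. All but 1 of these had means at background (4.13 and 3.61), where a difference may not show. Of the 6 pumps 1 was called higher and 1 lower.

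TOP2A, the topoisomerase poisoned by doxorubicin, lay at 11.72 to 13.47 (median 12.91) against 9.86 to 12.53 (median 11.43), a difference of 1.26 ± 0.36 (adjusted p = 0.0226; with RIN as a covariate 0.0528). The lowest relapsed samples were 9 (11.72) and 18 (11.94), which were also the lowest for the mitosis list. TUBB, a beta tubulin of the microtubules that vincristine binds, lay at 12.41 to 12.94 against 11.82 to 12.81 (0.18 ± 0.14, adjusted p = 0.409). GCLC, which starts glutathione synthesis, rose by 0.97 and GSR, which recycles glutathione, by 0.63. DCK, the kinase that activates cytarabine, differed by 0.98 (adjusted p = 0.0231; without healthy sample 5, 0.0514).

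The other 4 called genes of this list were less stable on their brightest probesets. GCLM, of glutathione synthesis, differed by 0.44 and lost its call without any single one of 6 dogs (adjusted p up to 0.0604). GSTA4, a glutathione transferase, differed by -0.67 and TXNRD1, a thioredoxin reductase, by 0.21, and each lost its call without any single one of 11 dogs (up to 0.0762 and 0.0982). MVP, the major vault protein, differed by -0.35 and lost its call without relapsed sample 9 (adjusted p = 0.0516), relapsed sample 12 (0.0512) or healthy sample 5 (0.0583). Dimmer probesets of TXNRD1 (0.52, adjusted p = 0.0063, and 0.38, 0.0065) and of MVP (-0.55, 0.0033, and -0.49, 0.0049) were called with larger differences. Further probesets of both genes were not called. Enzymes tied to other drugs in the labels were not called. ASNS, asparagine synthetase, which counters asparaginase, was 11.45 in sample 9 and 8.36 to 9.73 in the other relapsed samples against 9.11 to 10.29 (-0.01 ± 0.35). MGMT, which repairs alkylated guanine, lay at 6.11 to 7.63 against 6.30 to 6.88 (0.28 ± 0.22). With RIN as a covariate ABCB1 was the 1 member of the 29 that was called.

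**Figure D5:**
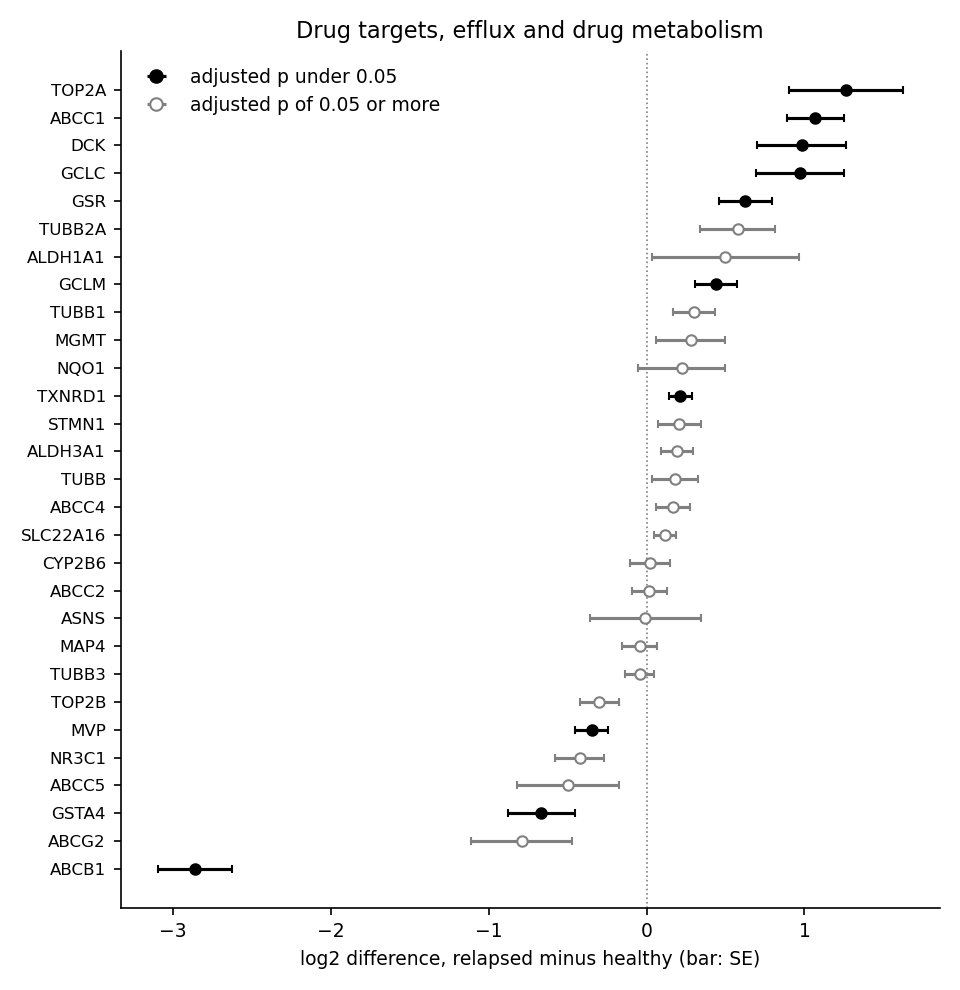
Log2 difference between 7 relapsed and 7 healthy dogs with its standard error for 29 genes of drug targets, efflux and drug metabolism; filled points were called. ABCB1 (-2.86) lies far from all other members, and TOP2A (1.26) and ABCC1 (1.07) are the highest.

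All protocols with a known composition contained a glucocorticoid, and few genes of that response were called. Of 15 measured members 2 were lower and 0 higher. The lower count was 5 without sample 18, 1 or 2 without any other single dog, and 0 with RIN as a covariate. NR3C1, the glucocorticoid receptor, lay at 10.33 to 11.38 (median 10.92) against 11.04 to 11.60 (median 11.36), which overlapped. It was not called (-0.42 ± 0.16, adjusted p = 0.0687), but was without sample 18 (-0.50, adjusted p = 0.0238). TXNIP, a glucocorticoid-induced inhibitor of thioredoxin, fell by 0.73 (adjusted p = 0.00655). TSC22D3, the glucocorticoid-induced leucine zipper, differed by -0.57 (adjusted p = 0.0415) and lost its call without any single one of 12 dogs (adjusted p up to 0.0819).

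Among 24 BCL2 family genes and caspases 4 were higher and 1 lower. BCL2L1, the survival factor BCL-XL, lay at 7.41 to 7.78 (median 7.71) against 8.46 to 9.57 (median 8.70), without overlap and with a difference of -1.17 ± 0.15, whereas its other probeset was not called (-0.14). BID, which links death receptors to mitochondria, rose by 0.67, and CASP8, the initiator caspase, by 0.73. BCL2 lay at 8.26, 8.86, 9.94, 9.28, 8.53, 10.91 and 8.65 in relapsed samples 3, 4, 9, 12, 13, 18 and 24, against 9.20 to 9.91 in the healthy dogs. Samples 9 and 18 were above all healthy dogs and 4 relapsed samples were below all of them. The difference of -0.44 ± 0.34 was not called (adjusted p = 0.385), but was without sample 18 (-0.73, adjusted p = 0.0315). With RIN as a covariate 0 members of this list were called. BCL2L14, described above, is not on this list and kept its call in that fit.

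Subunits and signalling genes of NF-kB, the pathway that the study examined, were called about as often as all genes. The study also assessed this pathway by nuclear protein staining and DNA binding, which mRNA levels do not measure. Of 27 subunits and signalling genes 3 were higher and 4 lower (median -0.01), and 0 were called with RIN as a covariate. MYD88, the adaptor of Toll-like receptors, lay at 10.38 to 11 against 9.76 to 10.04 (0.78 ± 0.10), without overlap, though 1 of its 2 other probesets was not called (0.04). RELB, a subunit of the alternative pathway, lay at 7.52 to 8.26 against 8.00 to 8.49 (-0.47 ± 0.12). NFKB1 (-0.30 ± 0.10, adjusted p = 0.0504) and NFKB2 (0.26 ± 0.15, adjusted p = 0.258), the precursors of p50 and p52, were not called on their brightest probesets. A dimmer probeset of each was called, with -0.55 for NFKB1 and 0.53 for NFKB2. NFKB1 was called without relapsed sample 24 (adjusted p = 0.0455) and without healthy dog 1 (0.0301). Of 99 published NF-kB target genes 10 were higher and 23 lower (median -0.19), beside 11.8% and 10.7% of all genes. Targets were thus called lower more often than all genes. T-cell genes such as IL2 are among those targets. Without sample 18 the counts were 12 and 31, and with RIN as a covariate 2 and 2.

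Genes of growth were higher. Of 27 MYC and nucleolar genes 17 were higher and 1 lower (median 0.54). MYC itself lay at 11.26, 10.33, 12.04, 11.28, 10.84, 10.70 and 10.97 in relapsed samples 3, 4, 9, 12, 13, 18 and 24, against 10.07 to 10.47 in the healthy dogs. All but sample 4 were above the healthy range (0.83 ± 0.20, adjusted p = 0.00901). MYCN, its paralogue, lay at 6.27 to 7.71 against 8.11 to 8.92 (-1.34 ± 0.25), without overlap, while its other probeset was not called (-0.04). DKC1, which modifies ribosomal RNA, rose by 1.01 and SRM, spermidine synthase, by 1. DKC1 was 1 of 2 members that stayed called with RIN as a covariate.

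Of 34 genes of the mitochondrial respiratory chain 12 were higher and 0 lower (median 0.25), among them NDUFB5 of complex I (0.79) and CYC1 of complex III (0.74). Of 26 proteasome genes 11 were higher and 0 lower (median 0.23), with PSMA4, a subunit of the core, at 13.15 to 13.94 against 12.52 to 13.08 (0.64 ± 0.12). With RIN as a covariate 0 members of either list were called. Glycolysis had 5 of 21 genes higher and 3 lower. Cholesterol synthesis had 3 of 15 higher and 0 lower, with DHCR7, its last enzyme in one route, rising by 0.56. Of 38 cytosolic ribosomal protein genes 3 were higher and 0 lower (median 0.02). RPL22 lay at 9.47 to 9.90 against 8.57 to 8.96, a rise of 0.83 ± 0.09 without overlap that kept its call with RIN as a covariate.

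Chromatin regulators were 4 of 26 higher and 4 lower. PRMT3, an arginine methyltransferase, lay at 8.94 to 9.27 in the relapsed samples except sample 18 (9.85), against 7.26 to 8.28 (1.48 ± 0.16), and PRMT1, the main enzyme of that family, at 12.67 to 13.09 against 12.14 to 12.43 (0.66 ± 0.08). Both were without overlap and stayed called with RIN as a covariate. DNMT3A, a DNA methyltransferase, fell by 0.65. EZH2, the histone methyltransferase of germinal centre B cells, lay at 10.93 to 11.94 against 10.25 to 11.38 and was not called (0.38, adjusted p = 0.176). Of 21 immediate early and stress genes 1 was higher and 1 lower. The higher one was FOS, a subunit of AP-1, at 13.14 in sample 18 and 8.30 to 11.10 in the other relapsed samples, against 9.48 in healthy dog 1 and 7.05 to 7.86 in the other healthy dogs (2.62 ± 0.59, adjusted p = 0.00658; with RIN as a covariate adjusted p = 0.525). Without sample 18, 7 members of this list were lower in place of 1.

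Relapsed DLBCL was also set against the 16 naive DLBCL arrays. No probeset was called in either direction (0%, limma, smallest adjusted p = 0.86), and at an unadjusted p under 0.05 there were 945 higher and 1112 lower probesets (4.78% of all). PPARA, a nuclear receptor of lipid metabolism, had the smallest p, at 8.38 ± 0.55 (SD, n = 7) against 7.04 ± 0.61 (SD, n = 16), a difference of 1.33 ± 0.26 (unadjusted p = 2.99e-05 in limma). Against healthy nodes PPARA was not called (0.55, adjusted p = 0.102), but it was without sample 18 (adjusted p = 0.0315). CCDC102B, the gene with the smallest p among the lower ones, was 3.17 ± 0.16 against 3.52 ± 0.18, both near background. It was not called against healthy nodes either, except without relapsed sample 4 (adjusted p = 0.0423) or healthy sample 8 (0.0466).

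The naive tumours were compared with the same healthy dogs, so that their differences share those controls. ABCB1 differed from healthy nodes by -2.86 in relapsed and -3.17 in naive DLBCL, with relapsed above naive by 0.31 ± 0.33 (unadjusted p = 0.364, limma). ABCC1 differed by 1.07 and 0.63, with relapsed above naive by 0.43 ± 0.31 (0.179). TOP2A differed by 1.26 and 1.47, CTLA4 by -4.08 and -4.60, and ISG15 by 2.15 and 1.68. A p that misses the threshold does not show that relapsed and naive tumours are alike. The T cell list had a median of -2.66 in relapsed and -2.61 in naive DLBCL, and the mitosis list of 0.93 and 1.43. FBLN1 was above naive DLBCL by 1.53 ± 0.64 and DCN by 1.58 ± 0.68, and neither was called (adjusted p = 0.989, limma).

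Relapsed sample 12 and naive sample 11 came from 1 dog, a Labrador Retriever. From the first to the later biopsy the T cell list level was 7.59 and 8.46, the mitosis list 9.65 and 8.89, the interferon list 10.04 and 9.25, and the fibroblast list 9.37 and 10.29. ABCB1 was 6.54 and 7.63, ABCC1 10.84 and 11.17, CCL17 6.81 and 8.96, and DCN 9.62 and 11. The later biopsy had the highest T cell level, ABCB1 and CCL17 of all relapsed samples, and it still lay below every healthy dog in these 3. This is 1 dog, and there is no test.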

How the data were processed

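RNA of lymph node biopsies was amplified from 50 ng with Nugen Ovation V2 and hybridised to Affymetrix Canine Genome 2.0 arrays. The authors summarised the arrays by RMA in Expression Console and deposited log2 values, 1 per probeset and array, for 33 arrays. Its version was not given in the sources used here. Since RMA forces the same distribution on every array, it hides shifts in the RNA content of cells, and fold changes of dim probesets come out too small. Values ran from 2.2 to 15.49 with array medians of 6.85 to 6.97, and the number of arrays limits the precision. No further normalization was applied, and 0 columns were left unused.

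Groups were taken from the labels, and arrays with the same case number were averaged. Relapsed and healthy dogs (7 each) were fitted without covariates by limma 3.58.1 under R 4.3.3, and p-values were adjusted by Benjamini-Hochberg over 43035 probesets. All adjusted p-values in the text are from limma fits. Relapsed and naive DLBCL were compared over 7 and 16 arrays. Each gene was represented by the brightest, on average, of its probesets. This used the 29264 probesets to which the platform annotation gives 1 symbol, and left out 439 with several symbols and 13332 with none here. The methods describe 2 balanced batches of RNA extraction, which were not assigned to samples here, and no batch was tested.

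The 42 gene lists hold 1171 entries, of which 987 were measured. Samples, lists and genes were chosen with earlier results of these data known. The genes named are the 12 largest rises and falls among called genes without overlap, up to 4 of the most changed called members and the first 2 measured members of each list, measured genes of the chemotherapy and glucocorticoid lists, the 5 genes of smallest p in each direction against naive DLBCL, and MS4A1, MYC, POLA1, RRM1, TOP2A, TYMS and POLE. Some items are not reported here. Of 138 genes named, 24 were called but had a dimmer probeset that was not called, which besides those given beside their values are E2F8, FCER1A, GCLM, GSTA4, GZMK, MVP, NDUFB5, POLA1, TSC22D3, TXNIP and TXNRD1. None of the 138 had another probeset called the other way. GZMA and COL1A2, given above, are not among the 138. POLE, which is not described in the text, rose by 0.92 on its brightest probeset and fell by 0.37 on another.

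Alternatives were treating every array as a sample, a random block for dogs (array correlation within a dog 0.566), 3 groups in 1 fit, RIN as a covariate, leaving out probesets whose mean lay below the 25th percentile (5.13), quantile or median normalization, the methods' ANOVA without moderation, eBayes with trend, the mean of a gene's probesets and leaving out each dog. Leaving out sample 18 and healthy dog 1 together was chosen after seeing the data. A planned description of promoter motifs was not run. RIN was compared by exact permutation over 3432 splits. Principal components, counts and plots used Python 3.11.15, numpy 2.4.6, scipy 1.17.1, pandas 2.3.3 and matplotlib 3.10.9.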

Additional observations from a re-analysis of the deposited data

Results flagged for a closer look

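In groups of 7 dogs the highest or lowest value was set against the others by Dixon's ratio. This was done for the 138 genes counted above, for RIN and for part of the lists. Of 302 such groups 27 had a value far from the rest (8.94%), where chance gives about 1 in 20. Healthy dog 1 gave 12 of them and relapsed sample 18 gave 7. Lists outside this screen are not in these counts. Among those, healthy dog 1 lay at 8.17 for mast cells and eosinophils (other healthy dogs 6.27 to 6.62). Sample 18 lay at 10.38 for immediate early and stress genes (other relapsed samples 8.56 to 9.24).

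Healthy dog 1 was low for T-cell genes, with CD28 at 9.37 (other healthy dogs 10.58 to 11.09), TRAT1 at 8.96 (10.48 to 11.35), CD27 at 10.82 (11.87 to 12.21) and the T cell list at 9.46 (10.13 to 10.49). It was also low for IDO1 at 11.56 (12.88 to 13.37), the receptor segment LOC609053 at 10.82 (11.79 to 12.30), SLC6A12 at 5.2 (6.31 to 6.88) and TUBB at 11.82 (12.45 to 12.81). It was high for the neutrophil list at 9.92 (6.85 to 7.92), FOS at 9.48 (7.05 to 7.86), KLHL14 at 8.47 (7.20 to 7.61) and TXNIP at 14.17 (13.65 to 13.87).

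Relapsed sample 18 was high for fat genes, with the adipose list at 10.12 (other relapsed samples 7.26 to 7.96) and ADIPOQ at 11.81 (6.74 to 8.26). RGS13 lay at 6.65 (4.41 to 4.92), MYBL2 at 12.14 (9.77 to 10.64), PRMT3 at 9.85 (8.94 to 9.27) and B2M at 14.55 (14.18 to 14.34). The replication gene ORC6 was low in this sample at 10.28 (11.71 to 12.44).

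Single values stood apart in other dogs. Among relapsed samples these were ADORA2B in sample 4 at 9.62 (8.86 to 9.18), CD79B in sample 3 at 11.99 (12.42 to 12.69) and LOC609053 in sample 24 at 5.39 (7.58 to 8.75). In healthy sample 7 they were FLT3 at 11.56 (9.89 to 10.54), BCL2L1 at 9.57 (8.46 to 8.91) and PSMA4 at 12.52 (12.89 to 13.08). CCND1 lay at 9.24 in healthy sample 10 (9.56 to 9.77) and TIGAR at 9.84 in healthy sample 6 (9.37 to 9.57). The causes of these values were not tested.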

How the results depend on the processing

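RIN as a covariate changed the results most. It left 183 probesets higher and 704 lower in place of 694 and 1505, with 2 members called higher of each of the B cell, mitosis and interferon lists and 1 of the replication list. It turned DCN to -0.28 and LUM to -0.51. The median log2 difference with RIN was 1.61 for the mitosis list (0.93 without RIN) and 0.82 for replication (0.67). It was 0.94 for interferon (0.90), 0.61 for B cell (0.66) and -2.23 for T cell (-2.66). Of 120 called genes named above 45 kept their call in that fit and 75 lost it, 73 of them with the same direction. RIN differed by 2.45 between dogs of the 2 groups and by 1.84 between arrays. With 3 groups in 1 fit 4 B cell and 10 interferon members were higher, and with 17 arrays as separate samples 39 mitosis genes. The causes were not tested.

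Probeset counts moved by less than 1.5 times under the other alternatives run. Leaving out 1 dog gave 603 to 958 higher and 1337 to 1866 lower probesets, with the highest of both without sample 18, 23 to 25 T cell members lower, and 7 to 8 B cell, 17 to 35 mitosis, 23 to 35 replication and 15 to 21 interferon members higher. Of the 120 genes 114 kept their call whichever dog was left out, while DCK, GCLM, GSTA4, MVP, TSC22D3 and TXNRD1 lost it at least once. Against naive DLBCL 0 probesets were called in every setting run.

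No paired analysis was possible because no dog was in both the relapsed and the healthy group, and the sample numbers do not tie dogs together. Values near the tag controls have no reliable order.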
